A study of Mus musculus with 147 samples.

Results

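The cells described here are the germ cells sorted as BVSC from wild-type mouse gonads at the embryonic days E13.5 and E14.5, the days around which male primordial germ cells (PGCs) go from mitotic division into mitotic arrest. Their names in the deposited table give time-point, genotype, sorting gate, part of the gonad and replicate, and cells with WT and BVSC in the genotype and gate fields were taken. A cell was kept with more than 2000 genes and between 10000 and 1000000 UMIs, which left 379 cells of 384, of 11598 wild-type cells that passed the same filter and 13032 cells in all. They form 4 pools, with 93 and 94 cells at E13.5 (R1 and R2) and 96 cells in each pool at E14.5. Another 190 cells of the same pools were sorted as negative for the reporters and are used as the background.

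BVSC stands for 2 transgenes that both stages carry, Blimp1-mVenus and Stella-ECFP, named for the genes that drive them, *Prdm1* (*Blimp1*) and *Dppa3* (*Stella*). The transgenic males were mated with C57BL/6 females, the labels give no other allele or treatment, and each pool joins the gonads of several embryos, divided into a part close to the mesonephros (P), a central part (C) and a distal part (D). By the study's methods, cells positive for Stella-ECFP alone were taken from E14.5 on because Blimp1-mVenus fades, so the gate and the stage cannot be told apart. The 2 driver genes were read in all pools. *Prdm1* had 98.9 and 63.7 CPM (counts per 1000000 UMIs of the pool) at E13.5 and 53.1 and 58.9 CPM at E14.5, and *Dppa3* had 1160 and 1175 CPM, then 1167 and 1144 CPM. Neither was called (edgeR, adjusted p = 0.24 and 0.594).

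Male PGCs go on dividing after they reach the gonad and later stop in G0/G1, where they stay until after birth. In this window Nodal signalling and the pluripotency genes are known to be shut down, the RNA-binding protein NANOS2 holds the cells in the male programme, and the machinery of PIWI-interacting RNAs (piRNAs), which silences transposons, and of de novo DNA methylation is switched on. Entry into S phase is driven by E2F factors, which the retinoblastoma proteins hold back while cyclin-dependent kinases are inactive.

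The libraries read the 3′ end of transcripts with unique molecular identifiers (UMIs). The pools held 27535797 and 22303106 UMIs at E13.5 and 29563468 and 32104931 UMIs at E14.5, and the median cell had 301779, 223436.5, 318473.5 and 319078 UMIs in the same order. At least 100 CPM of the germ cell genes *Ddx4* and *Dazl* together was found in 93 of 93, 93 of 94, 95 of 96 and 96 of 96 cells, against 15 of 47, 2 of 48, 0 of 47 and 1 of 48 reporter-negative cells, a count of 0 that allows a share of up to 6.38%. Of the 8 libraries, 0 hold both stages, so library and stage cannot be told apart, and any 2 of them share 45 to 96 of the 96 cell barcodes, with none repeated inside a library. The 2 pools at E13.5 stand apart from each other. Of 5704 well-covered genes, 203 (3.56%) differed at least 2-fold between the E13.5 pools and 29 (0.508%) between the E14.5 pools. By CPM without TMM, E13.5 R1 and the mean of the E14.5 pools lay on the same side of E13.5 R2 in 12344 of the 15916 genes tested. Both are set against the same pool, so most genes would do so without a stage difference. This count therefore does not place E13.5 R1 nearer to E14.5. E13.5 R1 was sequenced in 2 libraries that also hold its reporter-negative cells, while the other pools had separate libraries for the 2 gates. Counts of calls without this pool are given beside those of the main lists, while the mirror fit without E13.5 R2 is not given by list. Such counts, and calls of single genes in that fit, depend on which E13.5 pool is left out. They are not read as support for a list or a gene. In a fit without E13.5 R1, the lone E13.5 pool is assumed to vary as the E14.5 pools do.

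At the level of pools, 2 of 15916 genes tested (0.0126%) passed a false discovery rate of 0.05 in edgeR's quasi-likelihood test of the 4 pools, both higher at E14.5. *Dnmt3l*, the catalytically inactive cofactor of de novo DNA methylation (chr10:78041947-78063622, plus strand, mm10), had no UMI in either E13.5 pool and 35.7 and 17.8 CPM at E14.5. This is an at least 444-fold rise against 3 counts over both E13.5 pools (edgeR, adjusted p = 0.041). *Gm364* (chrX:57409154-57488767, plus strand), a gene model on the X chromosome, had 0.654 and 0.269 CPM at E13.5 and 34.8 and 26.5 CPM at E14.5, a log2 fold change of 5.87 ± 0.55 (SE, edgeR adjusted p = 0.041). The stages do not overlap in either gene. Neither passed with scaling by library size only (edgeR, adjusted p = 0.0534 for both), with limma-voom (adjusted p = 0.11 for *Dnmt3l* and 0.0729 for *Gm364*), in part C of the gonad alone (edgeR, adjusted p = 0.063 and 0.0978) or in part D alone (edgeR, adjusted p = 0.0598 and 0.0987).

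An unadjusted p under 0.05 was reached by 2509 genes (15.8%), and on the scale of the fit (CPM after TMM) the 2 stages did not overlap in 7950 genes (49.9%), 4242 higher (26.7%) and 3708 lower (23.3%). Without TMM these shares are 34.8% higher and 16% lower, because the factors shift the median log2 fold change of all genes, which is 0.04 with them and 0.21 without. The counts of calls depended on the fit. A fit with the spread estimated over all 12 BVSC pools from E11.5 to E16.5 called 249 of 21095 genes (1.18%), with 186 higher (0.882%) and 63 lower (0.299%). This fit assumes for a gene the same spread on all days, although the E13.5 pools differed more from each other than the E14.5 pools. DESeq2 called 732 of 15298 (4.78%), with 411 higher (2.69%) and 321 lower (2.1%). Leaving out E13.5 R1 gave 2913 calls of 17354 (16.8%), with 1351 higher (7.78%) and 1562 lower (9%). Below, "called" names the fit in which a gene passed, and all other values are given as levels. Counts of list members without overlap are to be read against the shares of all genes, 26.7% higher and 23.3% lower. Counts of calls are to be read against the shares of all genes called in the same fit, given above.

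Genes of the piRNA pathway lay higher at E14.5. Of 22 members, 21 were tested and the stages did not overlap in 16, all 16 higher, with a median log2 fold change of 1.03. None was called in the 4-pool test, 5 were called higher in the 12-pool fit, 7 with DESeq2 and 14 without E13.5 R1. *Tdrd9*, an RNA helicase of the nuclear piRNA branch, had 2.36 and 0.583 CPM at E13.5 and 34.6 and 25.8 CPM at E14.5. Its log2 fold change of 4.20 ± 0.63 (SE) missed the threshold in the 4-pool test (edgeR, adjusted p = 0.131) and passed it in the 12-pool fit (adjusted p = 0.000505). *Spocd1*, which links piRNAs to DNA methylation, had 1.09 and 0 CPM, then 26.8 and 10.1 CPM (12-pool fit, adjusted p = 0.00708). In both genes the E13.5 pools are near 0 and the 2 stages do not overlap.

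Other members were already read at E13.5, although *Gtsf1* in E13.5 R2 was not above background by share of cells, as given below. *Gtsf1*, a zinc-finger cofactor of PIWI proteins, had 54.8 and 11.2 CPM at E13.5 and 227 and 166 CPM at E14.5 (12-pool fit, adjusted p = 0.0269). *Mov10l1*, the helicase that starts piRNA processing, had 91.5 and 71.6 CPM, then 207 and 167 CPM (12-pool fit, adjusted p = 0.0426). *Morc1*, a repressor of transposons, had 51.5 and 36.2 CPM, then 138 and 103 CPM (12-pool fit, adjusted p = 0.0255). In each of these the lower E14.5 pool lay above the higher E13.5 pool. *Piwil4*, the nuclear PIWI protein MIWI2, had 18 and 5.56 CPM at E13.5 and 67.8 and 47.3 CPM at E14.5 and was called with DESeq2 and without E13.5 R1 (adjusted p = 0.000197 and 0.000145) but not in the 4-pool test or the 12-pool fit (edgeR, adjusted p = 0.178 and 0.0815). *Piwil2*, its cytoplasmic partner MILI, had 63.3 and 33.3 CPM, then 101 and 110 CPM (adjusted p = 0.207, 0.0791 and 0.001).

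Of 10 genes of the DNA methylation machinery, 9 were tested. The stages did not overlap in 6, 4 of them higher and 2 lower. Next to *Dnmt3l*, the enzyme gene *Dnmt3a* had 81.8 and 64.4 CPM at E13.5 and 195 and 167 CPM at E14.5, a log2 fold change of 1.14 ± 0.19 (SE) that was called in the 12-pool fit (edgeR, adjusted p = 0.0149) and not in the 4-pool test (adjusted p = 0.141). *Dnmt3b* had 16.1 and 5.74 CPM, then 9.54 and 9.34 CPM, so its E14.5 pools lie between the E13.5 pools. *Dnmt1*, the maintenance enzyme, had 173 and 214 CPM, then 170 and 170 CPM. *Tet1*, which oxidizes methylcytosine, had 323 and 297 CPM, then 261 and 260 CPM (4-pool test, adjusted p = 0.251).

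Among 18 meiosis genes, 17 were tested, and the stages did not overlap in 8 that were higher and 2 that were lower at E14.5 (median log2 fold change 0.41). *Tex101*, which codes for a germ cell surface protein, had 29.9 and 13.7 CPM at E13.5 and 182 and 139 CPM at E14.5, a log2 fold change of 2.73 ± 0.34 (SE, 4-pool test, edgeR adjusted p = 0.104, 12-pool fit, adjusted p = 0.00158). *Sycp2*, a protein of the synaptonemal complex, had 21.8 and 9.46 CPM, then 50.5 and 56.5 CPM (12-pool fit, adjusted p = 0.0173). These 2 were the calls of the list in the 12-pool fit, and without E13.5 R1 there were 8 calls higher and 1 lower. *Stra8*, the gatekeeper of meiosis, had 10.4 and 1.7 CPM at E13.5 and 20.3 and 22.9 CPM at E14.5 (4-pool test, edgeR adjusted p = 0.294). With cells thinned to 50000 UMIs, *Stra8* was in 18 of 93 BVSC cells (19.4%) of E14.5 R1. In reporter-negative cells of that pool it was in 23 of 44 (52.3%), so this BVSC share was not above background. In E14.5 R2 the shares were 52.7% (BVSC) and 2.27% (reporter-negative). *Sycp3* had 5.88 and 6.5 CPM, then 36.7 and 17.7 CPM (4-pool test, edgeR adjusted p = 0.18). *Syce2* is the member with the clearest opposite order, with 361 and 431 CPM at E13.5 and 280 and 276 CPM at E14.5 (edgeR, adjusted p = 0.188).

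**Figure D1:**
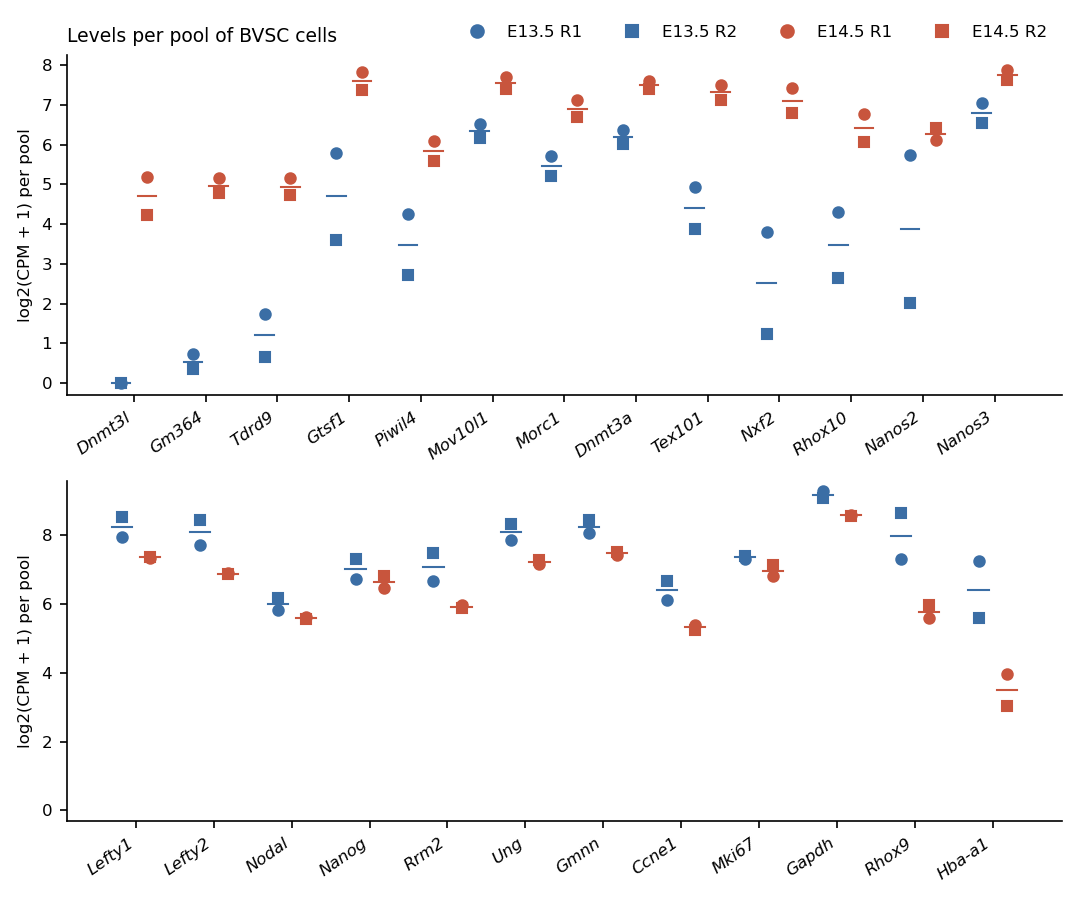
Levels of 25 genes in the 4 pools of BVSC cells, as log2(CPM + 1) on the vertical axis, with a symbol per pool (blue E13.5, red E14.5, circle R1, square R2) and a line at the mean of the 2 pools. *Dnmt3l* sits at 0 in both E13.5 pools and at 35.7 and 17.8 CPM at E14.5, while for *Nanos2* the E13.5 pools are far apart at 52.3 and 3 CPM.

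The genes of the NANOS family did not share a pattern. *Nanos2* had 52.3 and 3 CPM at E13.5 and 68.2 and 85 CPM at E14.5, so the stages do not overlap but the difference between the E13.5 pools is larger than that between E13.5 R1 and either E14.5 pool. It was not called in the 4-pool test (log2 fold change 1.35 ± 0.89, SE, edgeR adjusted p = 0.509). *Nanos3*, needed for the survival of PGCs, had 131 and 92.7 CPM, then 234 and 199 CPM (4-pool test, edgeR adjusted p = 0.185). *Nanos1* was low in all pools, at 7.37 and 2.24 CPM and then 1.49 and 2.18 CPM. The partners *Dnd1*, *Pum2* and *Cnot1* overlapped between the stages.

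Of 43 G1/S genes on the study's list, all of them tested, 36 were lower at E14.5 without overlap of the stages and 1 was higher, and 41 had a negative log2 fold change (median -0.55). None was called in the 4-pool test. *Rrm2*, *Ung* and *Gmnn* were called lower in the 12-pool fit, 14 members with DESeq2 and 27 without E13.5 R1, all lower. *Rrm2*, the subunit of ribonucleotide reductase that limits nucleotide supply, had 101 and 177 CPM at E13.5 and 61.5 and 57.6 CPM at E14.5, a log2 fold change of -1.42 ± 0.30 (SE, 4-pool test, edgeR adjusted p = 0.172, 12-pool fit, adjusted p = 0.0142). *Ung*, which removes uracil from DNA, had 230 and 323 CPM, then 141 and 154 CPM (12-pool fit, adjusted p = 0.0191). *Gmnn*, the inhibitor of replication licensing, had 265 and 349 CPM, then 171 and 184 CPM (12-pool fit, adjusted p = 0.0452). In all 3 genes the E14.5 pools lay close together and E13.5 R1 lay between them and E13.5 R2.

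The replicative helicase was read at high levels in both stages. *Mcm2* had 275 and 299 CPM at E13.5 and 177 and 201 CPM at E14.5, and *Pcna*, the clamp of the replication fork, had 386 and 445 CPM, then 287 and 286 CPM. Each lay lower at E14.5 without overlap (4-pool test, edgeR adjusted p = 0.172 and 0.184).

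The promoters of members of both cycle lists are shown because the 2 lists are known to be bound by different factors, E2F at G1/S genes and the complexes that bind the cell cycle homology region (CHR) at G2/M genes. Of members lower without overlap, 3 G1/S genes with an E2F motif and 2 G2/M genes with a CHR and a CCAAT box are printed. They have the smallest p apart from genes on a chromosome that was left out, and were chosen after their values were seen. The sequences are the 250 bases before the RefSeq start of the gene on its own strand (GRCm38.p6). Capitals in the first 3 mark E2F motifs (TTTCCCGC, TTTCGCGC, TTTGCCGC or TTTGGCGC, on either strand, where neighbours can overlap), and capitals in the last 2 mark the CHR (TTTGAA or TTCGAA) and the CCAAT box, on either strand. *Mcm6* is at chr1:128359706-128359955 (minus), *Mcm5* at chr8:75109259-75109508 (plus), *Cdc6* at chr11:98907901-98908150 (plus), *Ube2c* at chr2:164769679-164769928 (plus) and *Ccnb2* at chr9:70421555-70421804 (minus).
Mcm6: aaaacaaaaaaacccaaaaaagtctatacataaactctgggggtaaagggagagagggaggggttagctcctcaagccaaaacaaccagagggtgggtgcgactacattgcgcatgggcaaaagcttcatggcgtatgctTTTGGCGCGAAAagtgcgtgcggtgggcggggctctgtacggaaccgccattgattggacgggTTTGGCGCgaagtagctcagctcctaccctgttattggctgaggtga
Mcm5: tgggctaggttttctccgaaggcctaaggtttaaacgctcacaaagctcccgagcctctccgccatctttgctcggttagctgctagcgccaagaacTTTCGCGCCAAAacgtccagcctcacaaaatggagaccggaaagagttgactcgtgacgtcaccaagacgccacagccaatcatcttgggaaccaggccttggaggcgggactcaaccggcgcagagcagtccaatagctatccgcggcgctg
Cdc6: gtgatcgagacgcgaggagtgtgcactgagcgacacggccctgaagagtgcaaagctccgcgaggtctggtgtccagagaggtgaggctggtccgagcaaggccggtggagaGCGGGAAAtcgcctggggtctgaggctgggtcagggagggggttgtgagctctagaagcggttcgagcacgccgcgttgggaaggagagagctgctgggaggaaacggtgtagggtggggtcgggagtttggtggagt
Ube2c: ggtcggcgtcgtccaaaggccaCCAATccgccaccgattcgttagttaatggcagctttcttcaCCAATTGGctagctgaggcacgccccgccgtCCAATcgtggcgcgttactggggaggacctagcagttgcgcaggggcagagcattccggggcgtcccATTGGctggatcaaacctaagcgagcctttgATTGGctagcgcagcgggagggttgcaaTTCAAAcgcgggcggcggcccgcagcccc
Ccnb2: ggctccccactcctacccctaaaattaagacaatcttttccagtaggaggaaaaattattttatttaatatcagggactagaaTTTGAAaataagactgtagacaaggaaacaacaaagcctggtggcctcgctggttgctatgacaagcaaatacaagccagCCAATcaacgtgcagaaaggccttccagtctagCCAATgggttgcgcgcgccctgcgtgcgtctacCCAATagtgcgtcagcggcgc

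An E2F motif was in 8 of the 31 promoters of G1/S genes that the table holds (25.8%), in 2 of 46 promoters of G2/M genes (4.35%) and in 1.91% of 27025 promoters of the same length. The CHR was in 19 of 46 G2/M promoters (41.3%), 5 of 31 G1/S promoters (16.1%) and 17.4% of all. The CCAAT box was in 71% of the G1/S promoters, 73.9% of the G2/M promoters and 34.5% of all. A match of letters is no measure of binding. Of the genes shown, *Mcm6*, a subunit of the helicase, had 375 and 325 CPM at E13.5 and 267 and 272 CPM at E14.5 (4-pool test, edgeR adjusted p = 0.193). *Mcm5*, another subunit, had 249 and 212 CPM, then 170 and 179 CPM (adjusted p = 0.194). *Cdc6*, the licensing factor that loads the helicase, had 24.5 and 45.8 CPM at E13.5 and a mean of 15.2 ± 0.398 CPM (SD, n = 2) at E14.5 (edgeR, adjusted p = 0.198). These 3 were called lower with DESeq2 (adjusted p = 0.0444, 0.0481 and 0.0163).

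Of 53 genes of the study's G2/M list, which as used here lacks 1 gene, all 53 were tested and 25 lay lower and 3 higher without overlap of the stages, with a median log2 fold change of -0.30. None was called in the 4-pool test or in the 12-pool fit, 1 was called lower with DESeq2, and without E13.5 R1 there were 25 calls lower and 1 higher. *Ube2c*, the ubiquitin-conjugating enzyme of the anaphase-promoting complex, had 535 and 707 CPM at E13.5 and 422 and 456 CPM at E14.5 (4-pool test, edgeR adjusted p = 0.215, DESeq2, adjusted p = 0.0325). *Ccnb2*, a mitotic cyclin, had 467 and 562 CPM, then 371 and 422 CPM (adjusted p = 0.232). *Mki67*, the proliferation marker Ki-67, had 159 and 167 CPM, then 112 and 139 CPM (adjusted p = 0.232). In these 3 genes both E14.5 pools stayed above 100 CPM.

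Of 14 cyclins and cyclin-dependent kinases, 8 lay lower and 5 higher without overlap, and none was called in the 4-pool test or the 12-pool fit, against 6 lower and 1 higher without E13.5 R1. *Ccne1*, the G1/S cyclin, had 68.9 and 102 CPM at E13.5 and 40.8 and 37.3 CPM at E14.5. Its log2 fold change was -1.32 ± 0.28 (SE, 4-pool test, edgeR adjusted p = 0.168). *Cdk1* had 270 and 331 CPM, then 228 and 233 CPM (adjusted p = 0.232). Among the 5 on the other side, *Ccnb3*, a cyclin of meiosis, had 2.91 and 1.03 CPM at E13.5 and 17.0 and 6.6 CPM at E14.5 (adjusted p = 0.218), and *Ccnd2* had 10.5 and 12.2 CPM, then 23 and 26.9 CPM (adjusted p = 0.259).

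Of 7 cyclin-dependent kinase inhibitors, none was called in the 4-pool or the 12-pool fit. *Cdkn1c*, which codes for p57, had 48.9 and 23.7 CPM at E13.5 and 75.2 and 74.9 CPM at E14.5 (4-pool test, edgeR adjusted p = 0.245). *Cdkn1b*, p27, had 15.9 and 7.58 CPM, then 24.9 and 15.6 CPM, which overlaps, and its log2 fold change was -0.19 in part D alone against 0.64 in all cells. *Cdkn1a*, p21, had 83 and 167 CPM, then 125 and 120 CPM, so that its direction turns with the E13.5 pool used (log2 fold change -0.24, and 0.46 without E13.5 R2). Of 11 genes of the retinoblastoma and E2F families, 6 lay lower and 3 higher without overlap. *Rb1* had 18.2 and 11.7 CPM, then 26.5 and 29.1 CPM (adjusted p = 0.34), and *E2f2* had 3.96 and 9.37 CPM, then 1.79 and 1.25 CPM (adjusted p = 0.231). *E2f1* overlapped, at 25.8 and 34.7 CPM and then 30.7 and 39.6 CPM. Of 15 regulators of mitotic entry and exit, 3 lay lower and 3 higher without overlap, against 23.3% and 26.7% of all genes tested. *Fbxo5*, which codes for the inhibitor EMI1 of the anaphase-promoting complex, had 110 and 197 CPM, then 84.2 and 92.6 CPM (adjusted p = 0.223), and *Wee1*, the kinase that holds back CDK1, had 47.7 and 52.3 CPM, then 52.6 and 79.9 CPM (adjusted p = 0.756).

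Nodal and its inhibitors had lower levels at E14.5. Of 12 members of the pathway, 11 were tested and 5 were lower and 1 higher without overlap (median log2 fold change -0.49). None was called in the 4-pool test or the 12-pool fit, 3 were called lower with DESeq2 and 4 without E13.5 R1. The ligand gene *Nodal* had 56.1 and 70.7 CPM at E13.5 and 48.3 and 46.8 CPM at E14.5 (4-pool test, edgeR adjusted p = 0.303). Its secreted inhibitor *Lefty2* had 210 and 348 CPM, then 118 and 117 CPM (log2 fold change -1.45 ± 0.27, SE, adjusted p = 0.165, 12-pool fit, adjusted p = 0.0608, DESeq2, adjusted p = 2.28e-05). *Lefty1* had 246 and 366 CPM, then 162 and 164 CPM (DESeq2, adjusted p = 0.00095). The coreceptor *Tdgf1* (*Cripto*) overlapped, at 21.8 and 34 CPM and then 23.7 and 15.3 CPM. *Nodal*, *Lefty1* and *Lefty2* were 27.9 CPM or less in every sum of reporter-negative cells.

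The 21 pluripotency genes were mixed, with 20 tested, 8 lower and 4 higher without overlap (median log2 fold change -0.32) and none called in the 4-pool test or the 12-pool fit, against 9 lower and 1 higher without E13.5 R1. *Pou5f1* (*Oct4*) had 197 and 235 CPM at E13.5 and 195 and 207 CPM at E14.5 (edgeR, adjusted p = 0.493). *Nanog* had 105 and 159 CPM, then 87.5 and 112 CPM (adjusted p = 0.326), and *Sox2* had 88.6 and 108 CPM, then 56.8 and 100 CPM (adjusted p = 0.43). The core factors were thus within 2-fold between any 2 pools. *Tfcp2l1*, a factor of naive pluripotency, lay the other way, at 18.1 and 17.2 CPM and then 38.2 and 51.3 CPM (adjusted p = 0.185). For 19 of the 20 tested, E13.5 R1 was on the E14.5 side of E13.5 R2, as it was for 12344 of all 15916 genes tested.

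**Figure D2:**
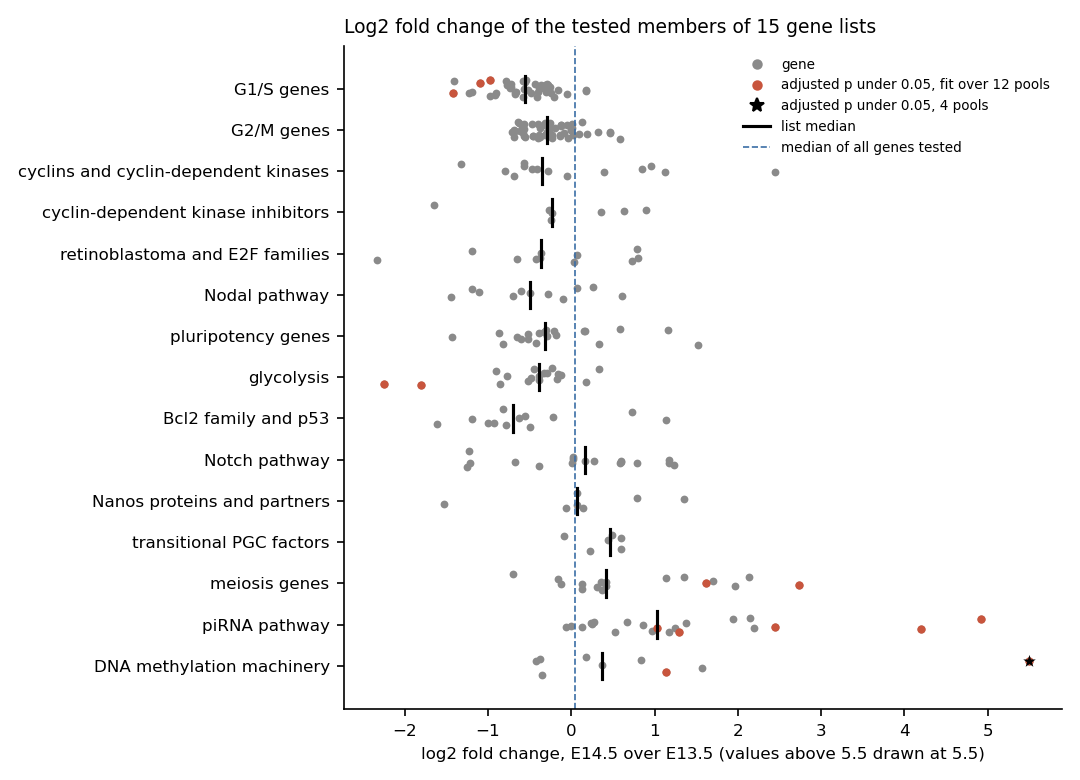
Log2 fold change of E14.5 over E13.5 on the horizontal axis for the tested members of 15 gene lists, with a point per gene, a black bar at the median of the list and a dashed line at the median of all genes tested, 0.04. Red points were called in the 12-pool fit and the star, *Dnmt3l*, also in the 4-pool test. The G1/S points lie nearly all to the left of the line and the piRNA points to the right.

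Among 19 genes of the Notch pathway, 17 were tested, 4 higher and 2 lower without overlap, against 26.7% and 23.3% of all genes tested. None was called in the 4-pool test or the 12-pool fit. *Hes1*, a repressor induced by Notch, had 126 and 71 CPM at E13.5 and 165 and 166 CPM at E14.5 (edgeR, adjusted p = 0.288), whereas *Hey1* had 43.4 and 108 CPM, then 40.8 and 33.6 CPM (adjusted p = 0.245). Of 6 genes that the study names for transitional PGCs, 5 transcription factors and the kinase gene *Wee1*, 4 lay higher without overlap and 4 were called higher without E13.5 R1. *Hesx1* had 185 and 108 CPM, then 227 and 231 CPM (adjusted p = 0.335), and *Tgif1*, a corepressor of SMADs, had 155 and 97.8 CPM, then 180 and 203 CPM (adjusted p = 0.357). The list was chosen by the study on these cells, so its direction is no independent evidence.

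Of the 12 genes of germ cell identity, 5 lay lower and 3 higher without overlap, against 23.3% lower and 26.7% higher of all genes tested. *Kit*, the receptor that PGCs need for migration and survival, had 54.9 and 83.6 CPM at E13.5 and 37.1 and 35.2 CPM at E14.5 (4-pool test, edgeR adjusted p = 0.189). *Tfap2c*, a factor of PGC specification, had 33.4 and 97 CPM, then 29.6 and 28.3 CPM (adjusted p = 0.241), so E13.5 R1 lay near the E14.5 pools. *Ddx4* had 412 and 328 CPM, then 490 and 417 CPM, and *Dazl* had 825 and 769 CPM, then 731 and 688 CPM, each within 2-fold between any 2 pools. Among 11 adhesion and homing receptors 4 lay higher and 3 lower without overlap, near the same shares of all genes tested. *Epcam* had 357 and 418 CPM, then 261 and 273 CPM (adjusted p = 0.184).

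Glycolysis genes lay lower at E14.5 in 13 of 18 without overlap and higher in 1 (median log2 fold change -0.39). *Hk1*, which phosphorylates glucose, and *Pfkp*, a phosphofructokinase, were called lower in the 12-pool fit (edgeR, adjusted p = 0.0337 and 0.0191), and 10 members were called lower without E13.5 R1. *Pfkp* had 31.5 and 73.8 CPM at E13.5 and 15.9 and 18.9 CPM at E14.5, and *Hk1* had 11.4 and 34.5 CPM, then 6.09 and 5.08 CPM. *Gapdh* had 620 and 543 CPM, then 387 and 380 CPM, with less spread at E13.5 (log2 fold change -0.77 ± 0.15, SE, adjusted p = 0.165). Of 12 genes of the Bcl2 family and p53, 6 lay lower and 2 higher without overlap, against 4 calls lower and 2 higher without E13.5 R1. *Trp53* had 247 and 449 CPM, then 209 and 189 CPM (4-pool test, edgeR adjusted p = 0.217). *Bax*, which permits apoptosis, had 441 and 580 CPM, then 380 and 377 CPM (adjusted p = 0.232). *Pmaip1*, the BH3-only gene of NOXA, lay the other way, at 63.6 and 39.9 CPM and then 123 and 132 CPM (adjusted p = 0.166).

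The rule for naming genes over the whole table, the largest changes among called genes whose average reached 5 on the log2 CPM scale and whose pools did not overlap, left 0 genes in the 4-pool test. Applied to the 12-pool fit after the values were seen, it left 84, of which 46 were higher and 38 lower. The 10 largest differences upward were those of *Nxf2*, *Rrad*, *Tex101*, *Rhox10*, *Topaz1*, *Gm973*, *Gtsf1*, *Mageb4*, *Neb* and *Brdt*. *Nxf2*, an X-linked RNA export factor of germ cells, had 13 and 1.35 CPM at E13.5 and 170 and 111 CPM at E14.5 (log2 fold change 4.17 ± 0.66, SE, edgeR adjusted p = 0.00707). *Mageb4*, also X-linked, differed little between replicates, at 10.8 and 11.1 CPM and then 71.6 and 53 CPM (adjusted p = 0.00047). *Brdt*, a bromodomain protein of the testis, had 28.7 and 12.3 CPM, then 101 and 81.1 CPM (adjusted p = 0.00708).

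The homeobox genes of the Rhox cluster on the X chromosome went both ways in the 12-pool fit. *Rhox10* had 18.8 and 5.29 CPM at E13.5 and 109 and 66.6 CPM at E14.5 (edgeR, adjusted p = 0.00533). *Rhox9* had 157 and 397 CPM, then 47.4 and 61.2 CPM (adjusted p = 0.00202), and *Rhox6* had 107 and 283 CPM, then 26.5 and 47.8 CPM (adjusted p = 0.0038). *Rhox6* and *Rhox9* are similar genes, and by the study's methods only reads with a unique alignment were counted, so reads that fit both are not in these values. The other largest differences downward were those of *Plcd1*, *Ak1*, *BC048679*, *Pfkp*, *Hmgn5*, *Crip1* and the globins *Hba-a1* and *Hba-a2*.

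Globin transcripts mark red blood cells and moved with the stage in both gates. The 6 blood markers summed to 377 and 113 CPM at E13.5 and 32 and 18 CPM at E14.5 in BVSC cells, and to 1684, 535, 181 and 157 CPM in reporter-negative cells in the same order. *Hba-a1* in BVSC cells had 150 and 47.8 CPM, then 14.7 and 7.16 CPM (12-pool fit, edgeR adjusted p = 0.0303). Its near-identical copy *Hba-a2* cannot be separated with certainty. *Alas2*, the erythroid enzyme of haem synthesis, was at 0.0448 CPM or less in all 4 pools. The summed Sertoli, Leydig and interstitial markers overlapped between the stages. The 11 Sertoli genes summed to 34 and 113 CPM, then 86 and 118 CPM, and the 5 Leydig genes to 47 and 3 CPM, then 88 and 4 CPM. The 9 interstitial and peritubular genes summed to 75.6 and 2.47 CPM, then 30.2 and 8.32 CPM. They were thus highest in E13.5 R1, the pool whose libraries also hold its reporter-negative cells. The 4 endothelial markers did not overlap, at 2.54 and 4.12 CPM and then 7.88 and 5.23 CPM, and their part in the other results was not tested. The 8 early stress genes summed to 160 and 412 CPM, then 229 and 223 CPM, highest in E13.5 R2. The part of blood RNA, somatic cell RNA and stress genes in the other results was not tested.

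The sums per pool were then read per cell, after thinning every cell to 50000 UMIs, which left 91, 86, 93 and 93 BVSC cells. With 2 pools a stage, an exact two-sided permutation test cannot go below 0.333, and no p is given. *Dnmt3l* was found in 0 of 91 and 0 of 86 cells at E13.5, which allows shares of up to 3.3% and 3.49%, and in 33 of 93 (35.5%, exact 95% interval 25.8 to 46.1%) and 24 of 93 cells (25.8%, 17.3 to 35.9%) at E14.5. In reporter-negative cells it was in 0 of 37, 0 of 44, 0 of 44 and 3 of 44 cells. Without thinning the BVSC counts were 0 of 93, 0 of 94, 63 of 96 and 41 of 96 cells, and the reporter-negative counts 0 of 47, 8 of 48 (16.7%), 0 of 47 and 14 of 48 (29.2%). The E14.5 level thus came from many cells, and not from all of them at this depth.

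*Tdrd9* was found in 6 of 91 and 3 of 86 thinned cells at E13.5 and in 42 of 93 and 32 of 93 at E14.5, and *Gm364* in 3 of 91, 1 of 86, 34 of 93 and 32 of 93. *Gtsf1* was in 48 of 91 and 21 of 86 cells, then in 88 of 93 and 83 of 93. In reporter-negative cells *Gtsf1* was in 6 of 37 (16.2%), 14 of 44 (31.8%), 1 of 44 (2.27%) and 9 of 44 (20.5%), so its share in BVSC cells of E13.5 R2, 24.4%, was not above that of the reporter-negative cells of the same pool and is read as background. *Nanos2* was in 48 of 91 and 5 of 86 cells, then in 56 of 93 and 70 of 93, so E13.5 R1 (52.7%) was nearer to E14.5 R1 (60.2%) than to E13.5 R2 (5.81%). *Mki67* was in 74 of 91 and 85 of 86 cells, then in 57 of 93 and 75 of 93, and E13.5 R1 (81.3%) and E14.5 R2 (80.6%) had overlapping intervals. In reporter-negative cells the share with *Nanos2* ran from 2.27% to 21.6%, the highest in E13.5 R1, where the most reporter-negative cells carry germ cell transcripts.

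**Figure D3:**
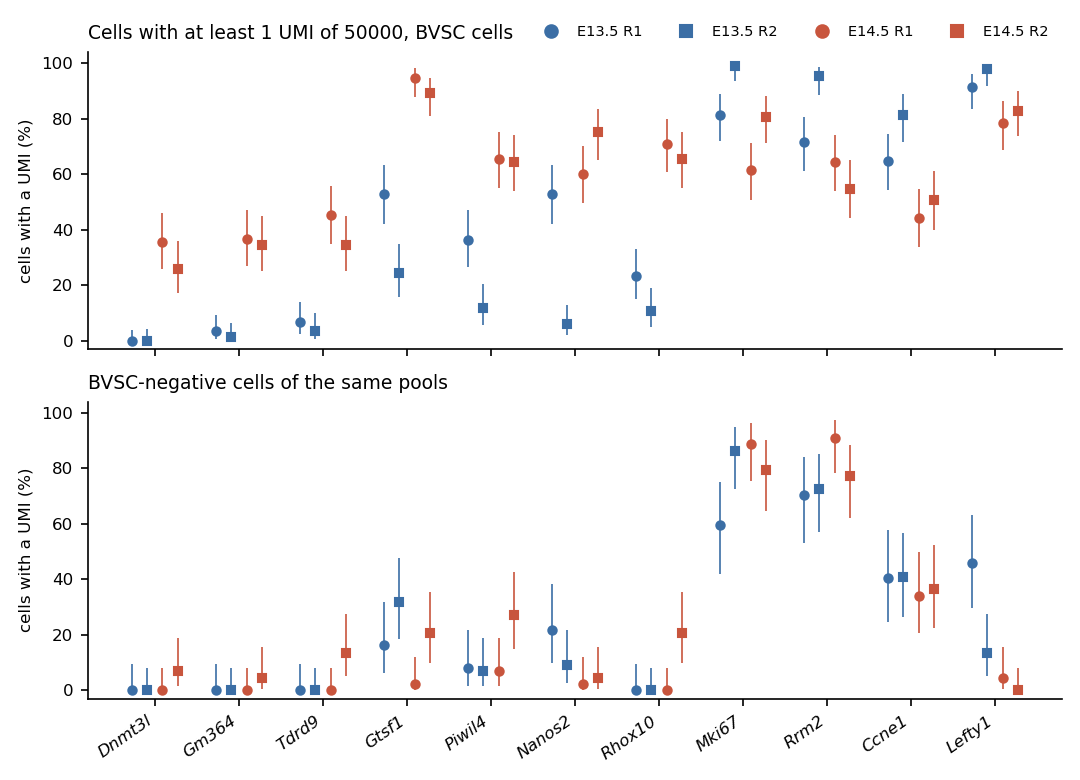
Share of cells with at least 1 UMI of a gene after thinning to 50000 UMIs, for 11 genes in BVSC cells (upper panel) and reporter-negative cells (lower panel), with exact binomial intervals that cover counting error only. Blue marks E13.5 and red E14.5, circles R1 and squares R2. *Dnmt3l* is in no BVSC cell at E13.5 and in 35.5% and 25.8% of them at E14.5.

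The summed G1/S transcripts per cell had a median of 365 and 400.5 UMIs of 50000 at E13.5 and 279 and 303 UMIs at E14.5, lower in both E14.5 pools. The E14.5 medians averaged 0.76 of the mean at E13.5 (SD 0.0443 over the 2 E14.5 pools). G2/M transcripts had medians of 541 and 658.5 UMIs, then 461 and 542 UMIs, so that E13.5 R1 and E14.5 R2 lie together, and the same ratio was 0.836 (SD 0.0955). In reporter-negative cells the medians were 273, 183.5, 243.5 and 261.5 UMIs for G1/S genes and 363, 584, 657.5 and 745.5 UMIs for G2/M genes. The spread within a pool was wide. At E14.5 the middle 50% of cells held 209 to 391 (R1) and 200 to 356 (R2) G1/S UMIs, and 386 to 740 and 372 to 723 G2/M UMIs.

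Within the E14.5 pools, cells with and without a UMI of an arrest-stage gene differed in their cycle transcripts. In E14.5 R1 the 33 cells with *Dnmt3l* had a median of 399 G2/M and 209 G1/S UMIs, and the 60 cells without it 684.5 and 359. In E14.5 R2 the 24 cells with it had 373.5 and 198, and the 69 cells without it 603 and 334. The split by *Tdrd9* gave 410.5 against 666 G2/M UMIs in R1 and 389 against 637 in R2. The split by *Nanos2* gave 412.5 against 739 and 500 against 680. In E13.5 R1, 48 cells with *Nanos2* had 419.5 G2/M UMIs and 43 without it had 640. In E13.5 R2 the G2/M order was opposite, with 730 in the 5 cells with it and 656 in the 81 without. The G1/S medians of that split were 392 with it and 404 without. These 5 of 86 cells (5.81%) were no larger a share than in reporter-negative cells of that pool, 4 of 44 (9.09%). In that pool the highest count in a cell was 5 UMIs in BVSC cells and 1 UMI in reporter-negative cells. The share alone therefore does not settle whether these 5 cells express *Nanos2*, and the split of so few cells is given without a reading. The split by *Tdrd9* at E13.5 gave 625.5 (6 cells) against 541 (85 cells) in R1 and 559 (3 cells) against 660 (83 cells) in R2. These are splits of cells inside a pool, given as a description with no test, and cells of a pool are not replicates.

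**Figure D4:**
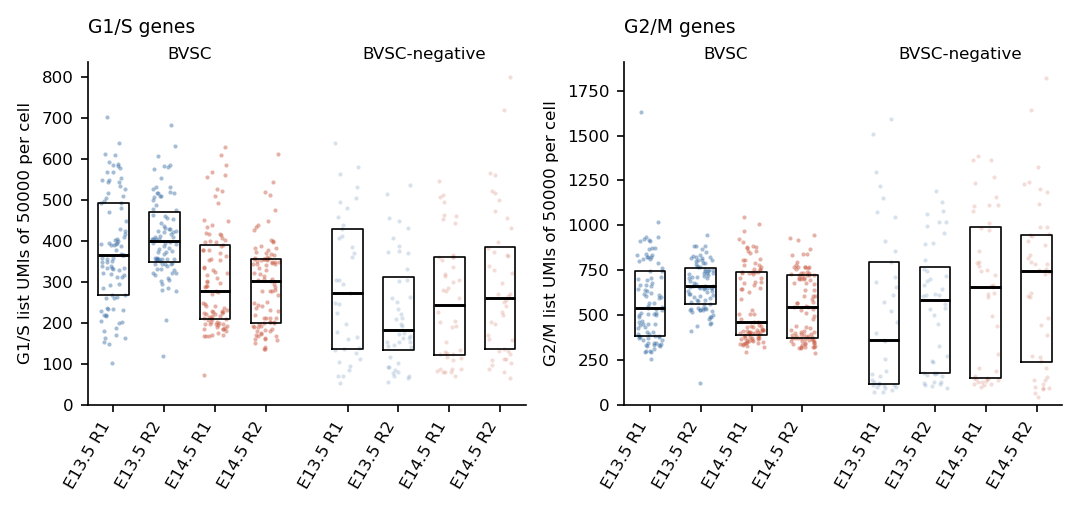
Summed UMIs of the G1/S list (left) and the G2/M list (right) per cell, out of 50000, with a point per cell and a box at the quartiles and median for each pool of BVSC and reporter-negative cells (blue E13.5, red E14.5). The G1/S medians of BVSC cells are 365 and 400.5 at E13.5 and 279 and 303 at E14.5, with wide overlap of the single cells.

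The change in BVSC cells was set against that in the reporter-negative cells of the same pools, with the pool as a block. Of 17072 genes, 1 (0.00586%) passed. *Tdrd5*, a Tudor protein of the piRNA pathway, had 123 and 44.7 CPM at E13.5 and 248 and 231 CPM at E14.5 in BVSC cells, and 16.7, 10.6, 3.48 and 2.89 CPM in reporter-negative cells. The log2 difference of the changes was 3.60 ± 0.47 (SE, edgeR adjusted p = 0.0297). *Tdrd5* did not pass when reporter-negative cells with germ cell transcripts were left out, with genes of 10 CPM or more only, or without E13.5 R1, and each of these settings called 0 genes. Next by p were *Hesx1* (adjusted p = 0.0672) and *Uba1y* (adjusted p = 0.0696), then *Pmaip1* and *Tfcp2l1*, and in the other direction *Flrt3*, *Prcd*, *Cyp1b1*, *Thbd* and *Pdgfrl*, all above the threshold. In reporter-negative cells alone, a fit added after the data were seen called 0 of 13771 genes (338 at an unadjusted p under 0.05, edgeR). Their makeup differed by pool: Leydig markers summed to 668, 1195, 1026 and 7 CPM, Sertoli markers to 845, 2160, 3241 and 407 CPM, and germ identity genes to 725, 193, 141 and 188 CPM.

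Whether the change differed between the parts of the gonad was tested with the pool as a block. In E13.5 R1, part P was in another library than parts C and D. The block does not remove this, so part P and library cannot be told apart in that pool. Of 15778 genes, 9 passed (0.057%), namely *Afp*, *Defb19*, *Aldh1a1*, *Pcolce*, *Me1*, *Gstm2*, *Cyp17a1*, *Cyr61* and *Cyp11a1*, and without E13.5 R1 the test called 238 genes. *Afp*, the fetal serum protein of yolk sac and liver, had 30.9, 0.186 and 3.98 CPM in parts P, C and D of E13.5 R1, 0 in all parts of E13.5 R2, and between 20.5 and 67.7 CPM in the 6 parts at E14.5. *Defb19*, a gene of Sertoli cells, had 91.8 CPM in part D of E13.5 R2 and 46.2 and 83.4 CPM in part P of the E14.5 pools, against 1.13 to 23.3 CPM in the 9 other sums. The 11 Sertoli markers were highest in the same 3 sums, at 277, 148 and 303 CPM against 25 to 57 CPM elsewhere, and their part in this result was not tested. *Cyp11a1* and *Cyp17a1*, enzymes of steroid synthesis, were read in some parts of the R1 pools, at up to 40.7 and 37.3 CPM, and at 1.43 CPM or less in R2 of both stages.

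Levels by part of the genes described above were read beside this test. *Rrm2* had 79.5, 118 and 98.6 CPM in parts P, C and D of E13.5 R1 and 183, 170 and 177 CPM in those of E13.5 R2, then 41.9, 64.4 and 78.7 CPM in E14.5 R1 and 70.0, 39.2 and 65.1 CPM in E14.5 R2. It was not called for a difference between parts, and *Nanos2*, *Dnmt3l*, *Lefty2*, *Mki67*, *Tdrd9* and *Gm364* were not called either. *Dnmt3l* was read in each part of both E14.5 pools, from 7.64 CPM in part P of R2 to 49.1 CPM in part D of R1.

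The step between E13.5 and E14.5 lies inside a longer course, given here as levels with no test. G1/S genes summed to 9558 and 8110 CPM at E11.5, 8627 and 8224 CPM at E12.5, 7626 and 8358 CPM at E13.5, 6303 and 6205 CPM at E14.5, 4083 and 4170 CPM at E15.5 and 3358 and 3862 CPM at E16.5. G2/M genes held 11363 to 13233 CPM from E11.5 to E13.5, 11038 and 11106 CPM at E14.5, then 7123 and 7799 CPM and 5452 and 6411 CPM. Both sums at E14.5 were below those of all earlier pools, and both were lower again at E15.5. The piRNA genes summed to 1280 to 2264 CPM up to E13.5, 3591 and 2957 CPM at E14.5 and 5739 and 5350 CPM at E15.5. *Dnmt3l* had no UMI in any of the 6 pools up to E13.5, and then went from 35.7 and 17.8 CPM to 269 and 156 CPM at E15.5 and 462 and 448 CPM at E16.5.

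Other lists did not change in 1 direction over these days. Nodal pathway genes summed to 673 and 607 CPM at E11.5, 887 and 1051 CPM at E12.5, 807 and 1111 CPM at E13.5, 545 and 577 CPM at E14.5 and 192 and 177 CPM at E15.5. The 6 transitional genes summed to 145 to 280 CPM up to E12.5, 597 and 379 CPM at E13.5, 714 and 773 CPM at E14.5 and 251 and 427 CPM at E15.5. *Nanos2* was at 0 in the 4 pools of E11.5 and E12.5, at 52.3 and 3 CPM at E13.5, 68.2 and 85 CPM at E14.5, 38.8 and 95.7 CPM at E15.5 and 3.95 and 8.29 CPM at E16.5. *Lefty2* had 118 and 117 CPM at E14.5, 11.2 and 21 CPM at E15.5, and 2.11 and 4.29 CPM at E16.5.

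**Figure D5:**
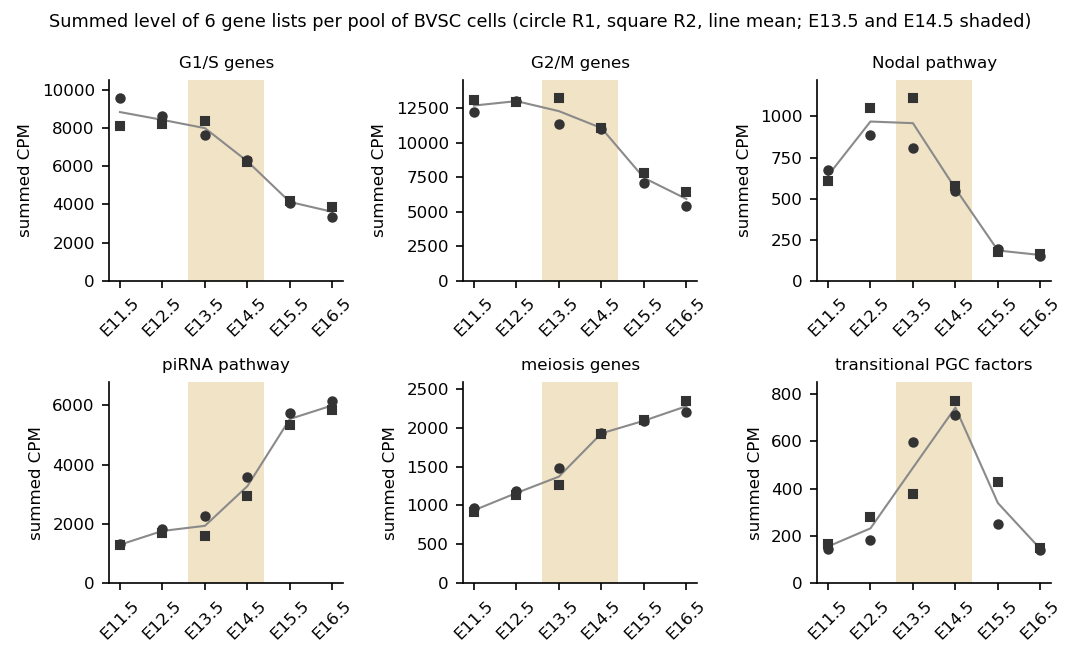
Summed CPM of 6 gene lists (G1/S, G2/M, Nodal pathway, piRNA pathway, meiosis and transitional genes) in each pool of BVSC cells from E11.5 to E16.5, with circles for R1, squares for R2 and a line at the mean of the day. E13.5 and E14.5 are shaded. The G1/S sum at E14.5, 6303 and 6205 CPM, lies below that of all earlier pools, and the transitional genes are highest at E14.5, 714 and 773 CPM.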

How the data were processed

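Wild-type BVSC and reporter-negative cells of E13.5 and E14.5 were analysed. The authors extracted barcodes and UMIs with UMI-tools, trimmed with seqtk, mapped to mm10 with STAR and counted with featureCounts (Subread); the submitters' processing notes also name CASAVA 1.8. The deposited values are UMI counts per gene and cell without normalization. GEO's labels tie no library to a stage here, so groups came from the cell names. The 11776 of 13032 cell columns outside E11.5 to E16.5 and these gates were not used.

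UMIs were summed per pool, and the pool is the replicate. Whether the replicates came from separate litters is not stated in the labels, so p-values measure the spread between these pools. The 4 pools were compared with edgeR's quasi-likelihood test (edgeR 4.0.16, limma 3.58.1, R 4.3.3), with TMM, filterByExpr and Benjamini-Hochberg adjustment at 0.05. CPM per pool are without TMM. Interactions with gate (8 sums) and part (12 sums) had the pool as a block. Differences in expression were also tested with DESeq2 1.42.0 and the other fits named under the limits. Scripts (Python 3.11.15) were tested on simulated data. Cells were thinned to 50000 UMIs, and intervals are exact (Clopper-Pearson, 95%) and cover counting error only. No doublet caller was run, since single cells were isolated one by one. Gene positions follow GENCODE on mm10 and promoters RefSeq.

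Named genes are list members that passed or whose role the text needs, the 10 largest changes in each direction among called genes whose average is 5 or more in log2 CPM and whose pools do not overlap, and the 5 smallest p in each direction of an interaction. The members, the 25 lists (343 genes, of which 329 were tested) and the tests were chosen with earlier results of these data known. Endothelial (4) and immune (5) marker lists had 2 and 1 tested members, and interstitial markers 9. None of these was called in the 4-pool test or the 12-pool fit, and without E13.5 R1 1 immune and 3 interstitial markers were called higher. Protein sequences were not used here, and some list members are not reported by name here.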

Additional observations from a re-analysis of the deposited data

Results flagged for a closer look

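The difference of the stage change between BVSC and reporter-negative cells passed its test in *Tdrd5* alone (log2 difference 3.60, edgeR adjusted p = 0.0297). It was not called when reporter-negative cells with germ cell transcripts were left out, at 10 CPM or more, or without E13.5 R1, and each of these settings called 0 genes.

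The stage change differed between the parts P, C and D of the gonad in 9 genes by the interaction test (edgeR). In E13.5 R1, part P was in another library than parts C and D, so part P and library cannot be told apart there. The adjusted p was 1.66e-05 for *Afp*, 0.000219 for *Defb19*, 0.0335 for *Aldh1a1*, *Pcolce* and *Me1*, 0.034 for *Gstm2*, 0.0444 for *Cyp17a1* and *Cyr61*, and 0.0481 for *Cyp11a1*. *Aldh1a1* had 30.0 CPM in part D of E13.5 R2, and 33.0 and 49.8 CPM in part P of the E14.5 pools, the same 3 sums in which the Sertoli markers were highest. *Cyr61* had 71.9, 56.4 and 37.9 CPM there.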

How the results depend on the processing

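The number of genes called between E13.5 and E14.5 was 2 in the 4-pool test, with DESeq2's size factors in edgeR, with germ cells only and with an added 2-fold minimum. It was 0 with library size only (2476 at an unadjusted p under 0.05, edgeR), 976 without a filter on low counts, 29 at 10 CPM or more, 35 with limma-voom, 732 with DESeq2, 249 in the 12-pool fit, 108 after thinning, and 447, 1 and 1 in parts P, C and D alone. Leaving out 1 pool gave 161 to 2913 calls, the highest without E13.5 R1. For the difference between gates, 1 call became 0 without germ-like negative cells (804 at an unadjusted p under 0.05) and 0 at 10 CPM or more (544), and 0 to 300 with 1 pool left out. For the difference between parts, 9 calls became 2 at 10 CPM or more and 16 to 267 with 1 pool left out. The cause was not tested.

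With the replicate number as a block, 718 genes were called (495 higher, 223 lower). The numbers do not pair the pools: the deviations of same-numbered pools correlate at 0.038 over 5704 genes, and the result is not used.

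Of 1562 values of 92 named genes, 1072 kept their direction and call, 478 passed the threshold in addition, 8 lost it (*Dnmt3l* and *Gm364* with library size only, with limma-voom and in parts C and D alone) and 4 changed sign. The sign changes were *Cdkn1b* in part D alone (log2 fold change -0.19), *Cdkn1a* without E13.5 R2 (-0.70 to 0.46 with 1 pool left out), and *Wee1* without E14.5 R2 (-0.092 to 0.47 with 1 pool left out) and after thinning (-0.012). The ratio of G1/S medians was 0.779 and that of G2/M medians 0.806 at 100000 UMIs. Pools of 22303106 to 32104931 UMIs limit genes of a few CPM.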
